A study of Homo sapiens with 12 samples.

Results

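The metallothionein genes MT1A, MT1E, MT1F, MT1G, MT1H, MT1M, MT1X, MT2A and MT3 were followed by gene symbol through mRNA libraries of 2 PCa cell lines, 9 of the 60660 genes in the tables. LNCaP, an established androgen-sensitive line, came from a lymph node metastasis, and 22Rv1, also human and established, came from a xenograft that had relapsed after castration. Cells of each line were transfected by lipofection with piR-4447944 mimic, a chemically modified synthetic RNA that carries the piRNA's sequence, or with NC-mimic, the negative control oligo. All 4 groups were grown in androgen-deprived medium and had 3 libraries each, so neither androgen-replete nor untransfected cells were among them. Each line is a single line whose libraries carry only a replicate number, and p-values therefore measure the spread between these libraries, which may be technical. The libraries held between 12161091 and 22179601 expected counts, the estimated reads per gene, of which the 9 genes took 0.00927% to 0.0326%. The prostate luminal markers KLK3, FOLH1 and HOXB13 had reads in every library, with KLK3 between 1828 and 2268 TPM in LNCaP and between 24.8 and 53.4 TPM in 22Rv1. TPM are counts scaled for gene length and depth. In the 22Rv1 groups, both replicate 3 libraries stood apart from the other libraries of their group, with a chi-square per gene of 41.3 to 118 between them and the others against 3.56 to 16.5 for the remaining pairs of replicates in both lines. Results that rest on these 2 libraries are also given from fits without the replicate 3 libraries of both groups compared.

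Metallothioneins are small, cysteine-rich proteins that bind zinc, copper and cadmium through thiolate clusters. They buffer free zinc, hand zinc to other proteins and scavenge oxidants. Their transcription is raised by zinc through MTF1, a zinc-finger factor that binds short metal response elements in metallothionein promoters, and by glucocorticoids. MT1 and MT2 isoforms occur in most tissues, whereas MT3 is known mainly from brain. The prostate is known for the high zinc of its normal luminal epithelium, which is lost in PCa.

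The 9 genes lie in 1 cluster on chromosome 16 of hg38, from 56589074 to 56684196, a span of 95123 bases. In order along the chromosome they are MT3 (56589074 to 56591088), MT2A (56608584 to 56609497), MT1E (56625475 to 56627112), MT1M (56632659 to 56633981), MT1A (56638666 to 56640087), MT1F (56657731 to 56660698), MT1G (56666730 to 56668065), MT1H (56669814 to 56671129) and MT1X (56682470 to 56684196). MT1G is on the minus strand and the other 8 genes are on the plus strand. MT1X shares its strand and its start with the long non-coding RNA ENSG00000259827, which had 0 counts in the 12 libraries. Since RSEM divides reads that match several genes, the copies of such a family could exchange reads. The expected counts of the 9 members were nevertheless whole numbers in every library (within 1e-06), while between 6.88% and 8.36% of all genes had a count that was not whole.

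The promoters of MT2A, MT1H and MT1X are shown because these were the 3 of the 9 members matched in the RefSeq promoter table (GRCh38.p14). It gives 250 bases before and 50 after the start, and MT1E was not among the matches. MT2A was the most abundant member, MT1H had reads only in 22Rv1 and MT1X varied most among the abundant members. The windows are chr16:56608334-56608633, chr16:56669564-56669863 and chr16:56682220-56682519, all on the plus strand. Capitals mark matches on either strand of the metal response element core (TGCACNC or TGCGCNC, which cannot match the same 7 bases) and of TATAAA, and no 2 of the matches overlap.
MT2A: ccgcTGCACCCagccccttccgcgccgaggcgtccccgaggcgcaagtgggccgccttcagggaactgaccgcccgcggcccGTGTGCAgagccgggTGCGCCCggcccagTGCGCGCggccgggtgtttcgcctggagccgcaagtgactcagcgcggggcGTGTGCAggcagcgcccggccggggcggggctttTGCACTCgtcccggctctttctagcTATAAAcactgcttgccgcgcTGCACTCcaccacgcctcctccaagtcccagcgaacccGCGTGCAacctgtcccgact
MT1H: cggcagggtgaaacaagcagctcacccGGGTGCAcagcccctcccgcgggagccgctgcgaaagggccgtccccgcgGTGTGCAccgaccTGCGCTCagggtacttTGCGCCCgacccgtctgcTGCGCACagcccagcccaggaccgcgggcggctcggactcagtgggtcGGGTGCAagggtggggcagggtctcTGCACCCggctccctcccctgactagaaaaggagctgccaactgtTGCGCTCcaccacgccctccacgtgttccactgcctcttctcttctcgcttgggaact
MT1X: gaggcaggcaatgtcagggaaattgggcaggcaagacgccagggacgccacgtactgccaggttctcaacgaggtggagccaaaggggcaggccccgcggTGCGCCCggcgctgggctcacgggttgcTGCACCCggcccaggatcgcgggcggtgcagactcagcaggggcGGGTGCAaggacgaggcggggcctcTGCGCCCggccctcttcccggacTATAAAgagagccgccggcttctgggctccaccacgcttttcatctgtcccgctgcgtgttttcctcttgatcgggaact
The MT2A window held 8 matches of the core, between positions -246 and 31 from the start, and the MT1H window 8, between -223 and -8. MT1X had 4, between -150 and -53. Of all 35116 promoters in the table, 29.6% held at least 1 match, 0.601% held 4 or more and 0.0199% (7 promoters) held 8 or more. TATAAA stood at position -29 in MT2A and at -30 in MT1X and had 0 matches in the MT1H window, against 11.5% of all promoters with a match. The matches describe the letters of these windows. They do not show that MTF1 bound there.

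First, the levels of the members were compared within each line on the TPM scale. MT2A, the main MT2 isoform, made up most of the family mRNA, with 76.2% to 83.4% of the summed TPM of the 9 genes in the LNCaP libraries and 71.3% to 83.1% in the 22Rv1 libraries. In LNCaP, MT2A lay between 729 and 847 TPM, MT1X between 90.0 and 137, MT1G between 60.0 and 91.9, MT1F between 15.0 and 21.8 and MT3 between 0.68 and 6.07 TPM. MT1X and MT1G overlapped in range, although MT1X was above MT1G in 6 of 6 libraries, and the other neighbours among the members with reads did not overlap. MT1A, MT1E, MT1H and MT1M had 0 counts in all 6 LNCaP libraries, which allows up to 0.0288 CPM, the count scaled to a common library size, for each (3 counts of 104001459, counting error only).

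In 22Rv1, reads came from 8 of the 9 members, and MT1A alone had 0 counts in 6 libraries (at most 0.0308 CPM). MT2A again stood above all others, between 832 and 1780 TPM. MT1G (43.1 to 218 TPM), MT1X (37.7 to 287 TPM) and MT1E (48.5 to 135 TPM) followed with overlapping ranges, so that their order was not set beyond their spread. MT3 (0.85 to 94.8 TPM), MT1F (5.42 to 15.3 TPM), MT1H (0 to 12.4 TPM) and MT1M (0 to 4.78 TPM) overlapped as well. MT1A, MT1E and MT1M are neighbours in the middle of the cluster, and in the plot of levels along the cluster the line difference in that stretch is carried by MT1E. The effective length by which the authors scaled TPM was short for these genes, between 124 and 150 bases for MT2A over the libraries of both lines. For MT1E it was between 394 and 449 bases in the 22Rv1 libraries, where the gene had reads.

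**Figure D1:**
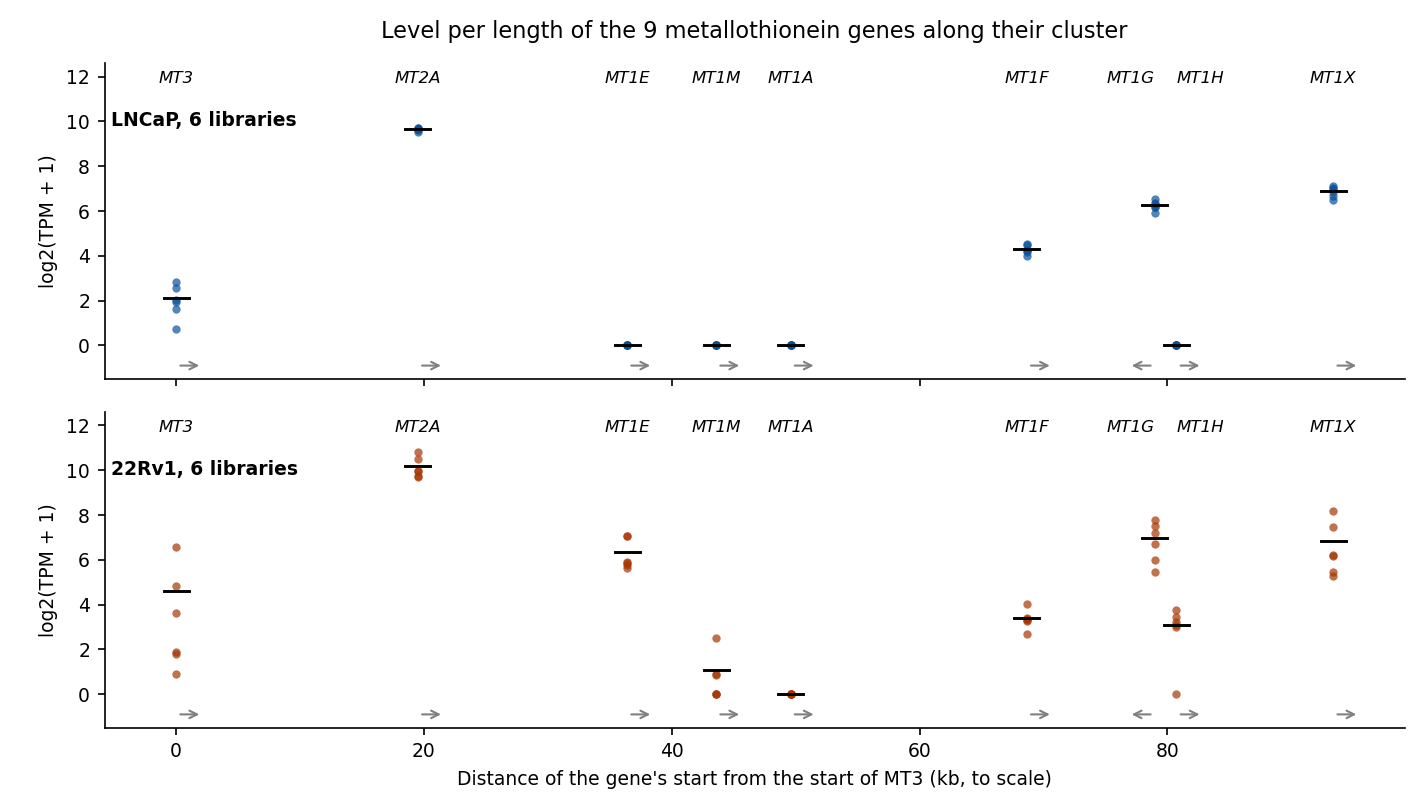
Each point is 1 library and each black bar the mean TPM of 6 libraries, on a log2(TPM + 1) axis, against the distance of the gene's start from that of MT3 in kb, and arrows give the direction of transcription. MT1E, MT1M, MT1A and MT1H sit at 0 in all LNCaP libraries, whereas MT1E lies between 48.5 and 135 TPM in 22Rv1.

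The sharpest difference between the lines was MT1E, one of the ubiquitous MT1 isoforms, which had reads in every 22Rv1 library and in no LNCaP library. The 22Rv1 libraries with NC-mimic held 432, 287 and 531 expected counts of MT1E (replicates 1, 2 and 3), and those with piR-4447944 mimic held 265, 286 and 690. On CPM of TMM-normalised library sizes, the scale of all CPM below, the pooled level was 25.2 with NC-mimic (exact 95% interval 23.8 to 26.6, counting error only) and 25.9 with the mimic (24.5 to 27.4). Against a floor of 3 counts over the 3 LNCaP libraries of the same arm, MT1E was at least 463-fold higher in 22Rv1 with NC-mimic and at least 417-fold higher with piR-4447944 mimic. With no LNCaP reads, MT1E passed the low-count filter through its 22Rv1 libraries alone, so its p is not given. In bulk RNA, fewer expressing cells and less RNA per cell cannot be told apart.

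MT1H, another MT1 isoform, showed the same on and off pattern at a lower level. It had 22, 19 and 10 counts in 22Rv1 with NC-mimic, 11, 0 and 24 under the mimic, and 0 in LNCaP. The pooled level was at least 18.9-fold higher in 22Rv1 with NC-mimic, where the gene again passed the filter through 22Rv1 alone, and at least 11.8-fold higher with piR-4447944 mimic, where it did not pass it. MT1M held 2, 0 and 1 counts with NC-mimic and 0, 0 and 8 with the mimic, so most of its reads came from 1 library. The pseudogene MT1L also had reads only in 22Rv1, with 38, 6 and 7 counts under NC-mimic and 6, 17 and 25 under the mimic. Of the 12 other metallothionein loci followed, MT1L and MT1XP1, with 2 counts in 1 LNCaP library, were the only ones with a read.

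**Figure D2:**
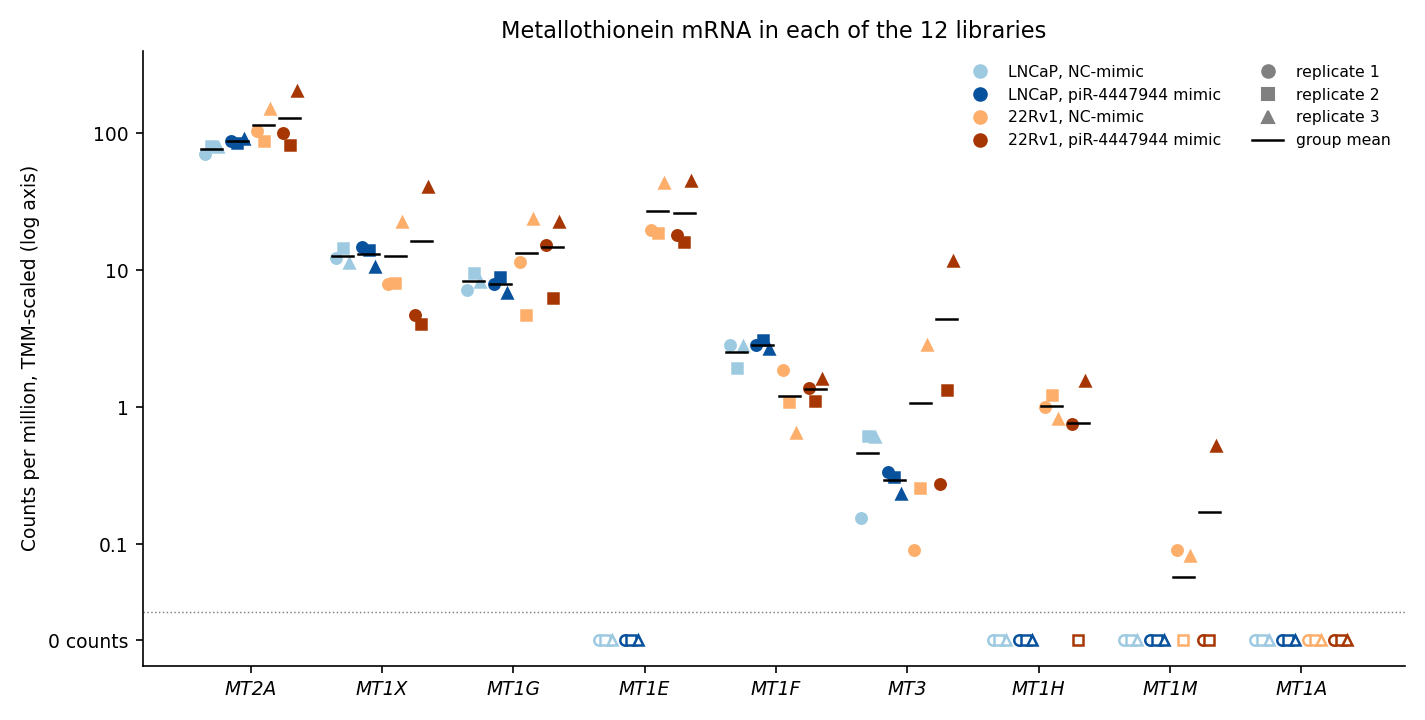
Each symbol is the TMM-scaled CPM of 1 gene in 1 library on a log axis, coloured by group and shaped by replicate number, with bars at group means and open symbols for 0 counts. MT1E and MT1H are at 0 in the 6 LNCaP libraries, and the replicate 3 triangles of 22Rv1 lie highest for MT2A, MT1X, MT1G, MT1E and MT3.

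The members with reads in both lines were tested with the edgeR quasi-likelihood test and Benjamini-Hochberg adjustment. With NC-mimic, 1 of these 5 members, MT2A, was higher in 22Rv1 and 0 were lower at an adjusted p under 0.05, against a background of 58.4% of 17497 genes called in either direction, 30.9% higher and 27.5% lower. MT1E and MT1H were also called, but they entered the fit through 22Rv1 alone and are left out of this count. MT2A stood at 70.9, 80.8 and 79.6 CPM in LNCaP and at 104, 87.6 and 150 CPM in 22Rv1, so the lowest 22Rv1 library lay above the highest LNCaP library. The mean level was 77.1 ± 5.38 in LNCaP and 114 ± 32.5 CPM in 22Rv1 (SD, n = 3), a log2 difference of 0.55 ± 0.19 (SE) with an adjusted p of 0.0327. Without the replicate 3 libraries the log2 difference was 0.32 (adjusted p = 0.0207), and it passed the threshold in 0 of the 3 fits that left out 1 LNCaP library (adjusted p from 0.0779 to 0.122). The CPM of 4 of the 8 members with reads did not overlap between the lines, namely MT2A and MT1F and, with no LNCaP reads, MT1E and MT1H. These 4 were among the 7 members tested, and 67.2% of 17469 genes tested did not overlap.

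MT1F, a widely expressed MT1 isoform, ran the other way. It stood at 2.85, 1.95 and 2.80 CPM in LNCaP and at 1.87, 1.10 and 0.65 CPM in 22Rv1 with NC-mimic. All 22Rv1 values were below all LNCaP values, yet the log2 difference of -1.04 ± 0.46 (SE) had an adjusted p of 0.0812, and it passed only in 1 of the 6 fits without a single library, the one without 22Rv1 replicate 1 (-1.52, adjusted p = 0.0310). With piR-4447944 mimic the LNCaP libraries held 2.84, 3.08 and 2.67 CPM and the 22Rv1 libraries 1.38, 1.12 and 1.62 CPM. Under the mimic MT1F was lower in 22Rv1 by a log2 difference of -1.05 ± 0.33 (SE) with an adjusted p of 0.0325. This call rested on few reads, with 138 counts over the 3 LNCaP libraries and 65 over the 3 22Rv1 libraries, and it was lost in the fits without any one of the LNCaP libraries or without 22Rv1 replicate 1 or 2 (adjusted p from 0.0714 to 0.119).

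With piR-4447944 mimic, 1 of the 4 members tested that had reads in both lines passed the threshold, MT1F as lower in 22Rv1, beside MT1E, called through 22Rv1 alone, against 52.4% of 17283 genes in either direction, 28.2% higher and 24.2% lower. Only MT1E and MT1F of the 8 members with reads did not overlap between the lines. Both were among the 5 members tested, and 64.5% of 17255 genes tested did not overlap. MT2A stood at 88.3, 84.9 and 91.4 CPM in LNCaP and at 99.8, 81.7 and 203 CPM in 22Rv1, and the groups overlapped. Its log2 difference was 0.55 ± 0.32 (SE, adjusted p = 0.198) and 0.07 without the replicate 3 libraries. The comparisons of the arms have no library in common.

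MT1X, an abundant MT1 isoform, differed between the lines in a way that depended on the replicate 3 libraries. In LNCaP it held 12.2, 14.5 and 11.2 CPM under NC-mimic and 14.9, 14.1 and 10.6 CPM under piR-4447944 mimic. In 22Rv1 it held 7.88, 8.08 and 22.3 CPM under NC-mimic and 4.68, 4.07 and 40.5 CPM under piR-4447944 mimic. The first 2 values of each 22Rv1 group were below every LNCaP library and the third was above every one. With all libraries the log2 difference was -0.01 ± 0.40 (SE) with NC-mimic and 0.33 ± 0.86 with the mimic (adjusted p = 0.987 and 0.771). Without the replicate 3 libraries it was -0.76 (adjusted p = 0.00636) and -1.72 (adjusted p = 5.90e-05), so that MT1X then passed the threshold as lower in 22Rv1.

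MT1G was not called in either arm. With NC-mimic it stood at 7.21, 9.49 and 8.22 CPM in LNCaP and at 11.5, 4.72 and 23.6 CPM in 22Rv1, on both sides of the LNCaP range. With piR-4447944 mimic the values were 7.91, 8.92 and 6.79 CPM in LNCaP and 15.3, 6.30 and 22.6 CPM in 22Rv1. The log2 differences of 0.66 ± 0.49 and 0.91 ± 0.44 (SE) had adjusted p of 0.280 and 0.122. Without the replicate 3 libraries they were -0.04 and 0.36, and without 22Rv1 replicate 2 they were 1.06 and 1.28 and passed the threshold (adjusted p = 0.0283 and 0.0101, edgeR).

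The replicate 3 libraries of 22Rv1 carried more metallothionein mRNA as a whole. The TPM of the 9 genes summed to between 933 and 1051 in the 6 LNCaP libraries and to between 1001 and 1268 in replicates 1 and 2 of 22Rv1. They summed to 2019 in 22Rv1 NC-mimic replicate 3 and to 2498 in 22Rv1 piR-4447944 mimic replicate 3. In the NC-mimic group 6 of the 8 members with reads were higher in replicate 3 than the mean of replicates 1 and 2, at ratios from 0.440 for MT1F to 16.3 for MT3, and in the piR-4447944 mimic group 8 of 8 were higher, by ratios of up to 14.5 for MT3, with MT1M having reads in replicate 3 alone. MT2A was 1.57-fold and 2.24-fold higher in replicate 3, MT1E 2.26-fold and 2.62-fold, MT1G 2.91-fold and 2.09-fold, and MT1X 2.80-fold and 9.26-fold. In LNCaP the corresponding counts were 3 of 5 and 1 of 5 members, at ratios from 0.719 to 1.58. The share of all genes higher in replicate 3 is not given here, so these counts do not single out the family. The estimated fragment length was 257 bases in 22Rv1 piR-4447944 mimic replicate 3, the lowest of the 12 libraries, and between 264 and 281 bases in the others, and its part in these levels was not tested.

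**Figure D3:**
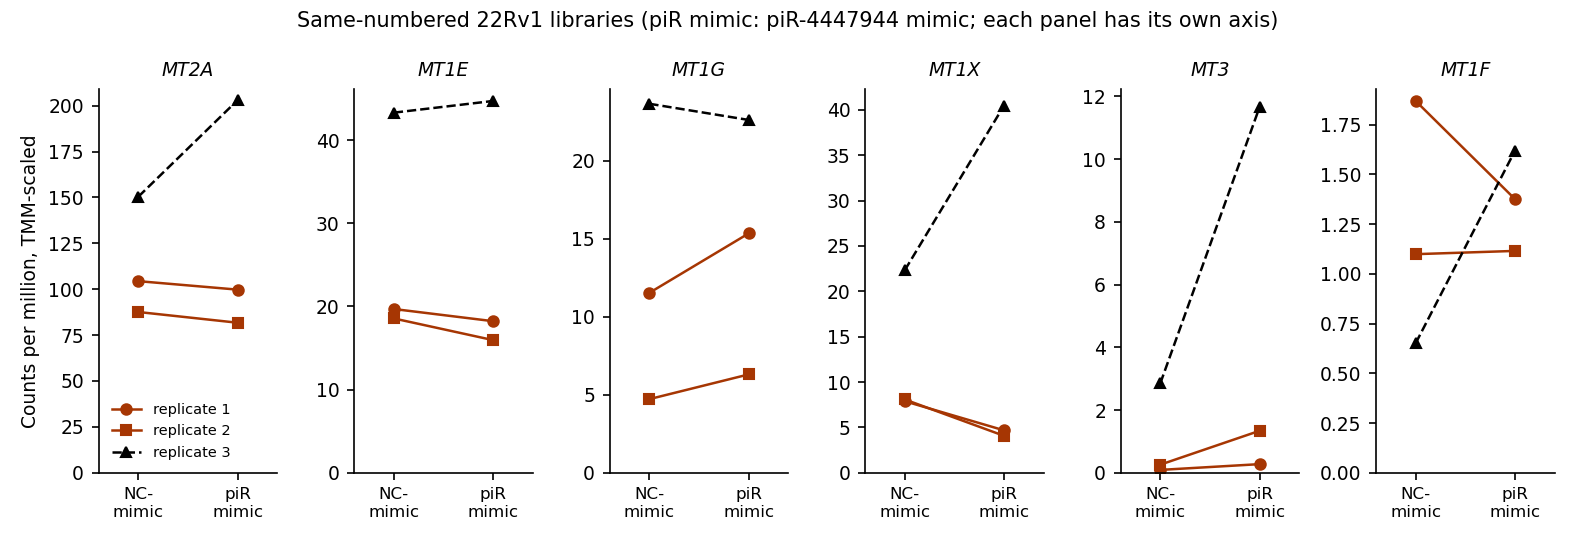
TMM-scaled CPM of 6 members in 22Rv1 under NC-mimic and under piR-4447944 mimic (piR mimic), with a line joining the libraries of the same replicate number and each panel on its own axis from 0. Replicate 3 (dashed) is highest in both groups for MT2A, MT1E, MT1G, MT1X and MT3, and MT1X is lower with the mimic in replicates 1 and 2 but higher in replicate 3.

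MT3, the brain-type metallothionein, was the member with the widest spread. It had 3, 12 and 10 counts in LNCaP under NC-mimic, against 5, 5 and 4 under the mimic. In 22Rv1 it had 2, 4 and 35 counts under NC-mimic, against 4, 24 and 180 under the mimic. Most of its reads in 22Rv1 therefore came from the replicate 3 libraries. The line difference with NC-mimic was 1.12 ± 1.15 on the log2 scale (SE, adjusted p = 0.426), and with piR-4447944 mimic the gene did not pass the low-count filter.

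To find whether piR-4447944 altered metallothionein mRNA, the mimic and NC-mimic were compared within each line. In LNCaP, 0 of the 4 members tested passed an adjusted p of 0.05 by edgeR, as did 0% of 16244 genes, and 0 of 4 met the rule of the study (a log2 fold change beyond 0.2 in size at an unadjusted p under 0.05), met by 2.22% of all genes. DESeq2 and limma also called 0 members. At an unadjusted p under 0.05 there was 1 member, MT2A. It stood at 77.1 ± 5.38 with NC-mimic and at 88.2 ± 3.24 CPM with the mimic (SD, n = 3), with the values 70.9, 80.8 and 79.6 against 88.3, 84.9 and 91.4. All mimic libraries were above all NC-mimic libraries, and the exact two-sided permutation test gave its smallest possible p of 0.1. The log2 fold change was 0.19 ± 0.08 (SE; unadjusted p = 0.0252, adjusted p = 0.999), just under the fold limit of the rule. Among the 6 fits without a single library, MT2A met the rule in 3, those without NC-mimic replicate 2 or 3 or without mimic replicate 2 (0.22 to 0.23), and its unadjusted p was over 0.05 in the other 3. MT2A was the only 1 of 5 members with reads (4 tested) whose groups did not overlap, against 7.85% of 16216 genes tested. The log2 fold changes of MT1F, MT1G and MT1X were 0.18 ± 0.27, -0.08 ± 0.17 and 0.05 ± 0.16 (SE), with overlapping groups.

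In 22Rv1, 0 of the 7 members tested passed the adjusted threshold (edgeR; 0% of 16898 genes), 0 met the rule of the study (1.48% of all genes) and 0 had an unadjusted p under 0.05. DESeq2 and limma also called 0. The groups overlapped in CPM for 8 of the 8 members with reads (7 tested), while 8.78% of 16872 genes tested did not overlap. MT3 had the largest fold change among the members, with a mean of 1.07 ± 1.55 CPM under NC-mimic and 4.42 ± 6.29 CPM under the mimic (SD, n = 3) and a log2 fold change of 2.08 ± 1.52 (SE; unadjusted p = 0.212). It was higher with the mimic in 3 of 3 same-numbered pairs, by 0.39, 1.28 and 1.86 on the log2(CPM + 0.5) scale, but most of its reads lay in 1 library, and the log2 fold change was -0.34 in the fit without piR-4447944 mimic replicate 3. With the replicate number as a block, the fold change of MT3 was 2.02 ± 0.49 (SE, unadjusted p = 0.00507, adjusted p = 0.869, edgeR), which met the rule of the study. The pairing behind this block was taken from the values alone. MT1X was lower with the mimic in replicates 1 and 2, by -0.70 and -0.91 on the same scale, and higher by 0.84 in replicate 3. Its log2 fold change was 0.35 ± 0.91 (SE) with all libraries and -0.86 ± 0.28 without the replicate 3 libraries (unadjusted p = 0.0102, adjusted p = 0.976), where it met the rule of the study.

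For every member tested in 22Rv1 except MT3, the log2 fold change was smaller in size than its standard error. The log2 fold change of MT2A was 0.16 ± 0.36 (SE) with all libraries and -0.08 without the replicate 3 libraries, and that of MT1E was -0.06 ± 0.48 and -0.16. MT1G, MT1F and MT1H had log2 fold changes of 0.14 ± 0.63, 0.16 ± 0.55 and -0.42 ± 1.09 (SE). The standard errors in 22Rv1 were several times those in LNCaP, and a change of MT1X or MT3 of the size of these standard errors was not detectable. The median log2 fold change of the members tested was 0.11 in LNCaP and 0.16 in 22Rv1, against 0.00 and -0.01 over all genes, and both signs turned in some alternatives. It was -0.038 in LNCaP on log2(TPM + 1), over 5 members instead of 4. In 22Rv1 it was -0.21 without the replicate 3 libraries, over 6 members instead of 7. Without mimic replicate 3 alone it was -0.34, over 7 members.

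**Figure D4:**
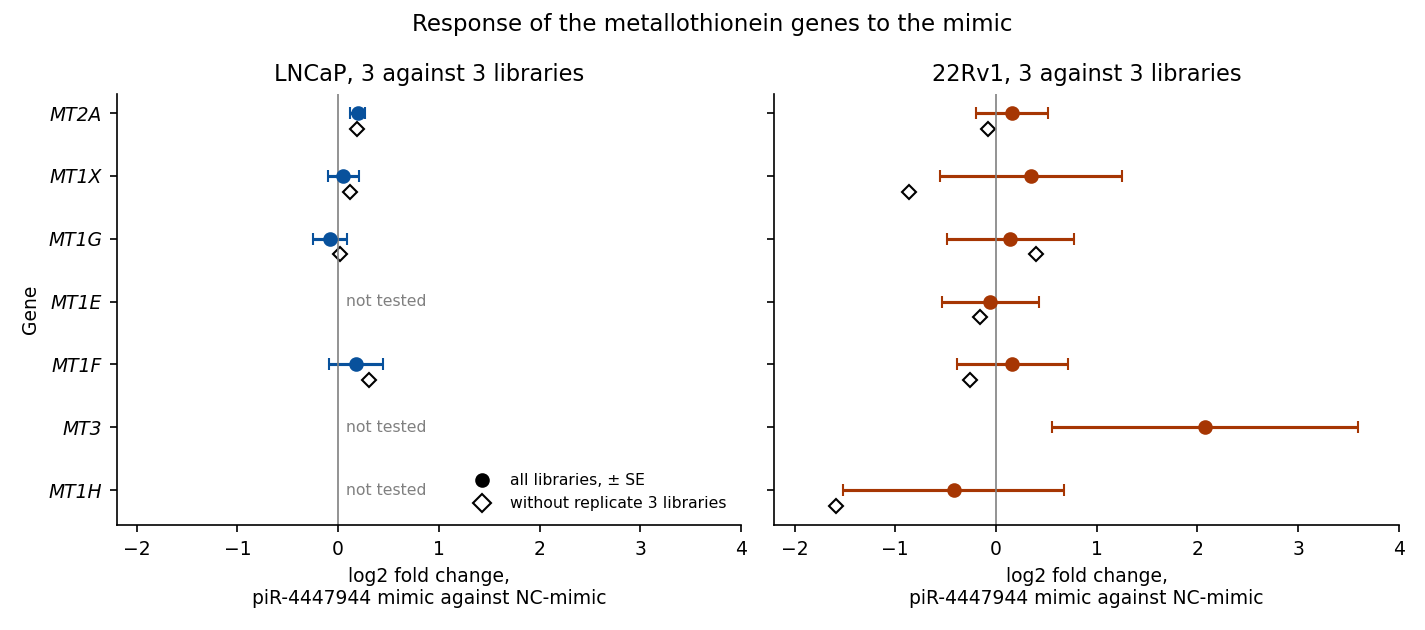
Log2 fold change with piR-4447944 mimic against NC-mimic in each line, with filled points and bars for the estimate ± SE from 3 against 3 libraries and open diamonds for the estimate without the replicate 3 libraries. MT2A in LNCaP lies at 0.19 ± 0.08, and the estimate of MT1X in 22Rv1 moves from 0.35 to -0.86 without replicate 3.

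The effect of the mimic was also compared between the lines with an interaction term over the 12 libraries. By edgeR, 0 of the 5 members with reads in both lines passed the adjusted threshold (0% of 18720 genes) or the rule of the study (3.26% of all genes), and 0 had an unadjusted p under 0.05. DESeq2 and limma called 0 members as well. The difference, 22Rv1 minus LNCaP, was 2.75 ± 1.88 for MT3, 0.31 ± 1.02 for MT1X, 0.23 ± 0.72 for MT1G, -0.02 ± 0.57 for MT1F and -0.03 ± 0.40 for MT2A (log2, SE). With the replicate block the difference of MT3 was 2.58 ± 0.82 (SE; unadjusted p = 0.0119, adjusted p = 0.886) and met the rule of the study, as did that of MT1X without the replicate 3 libraries, at -0.98 ± 0.28 (unadjusted p = 0.00389, adjusted p = 0.643). For MT1E and MT1H the LNCaP side had 0 counts, so no difference between the lines can be given.

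The genes that sense and move zinc were followed beside the metallothioneins, from a list of 25 that holds MTF1, the SLC30A exporters, which carry zinc out of the cytosol, and the SLC39A importers, which carry it in. Between lines with NC-mimic, 1 of the 20 genes tested was higher and 7 were lower in 22Rv1 at an adjusted p under 0.05 (edgeR). Under the mimic the numbers were 2 and 8. Both directions together were below the 58.4% and 52.4% of all genes called. By direction, the higher calls were below the 30.9% and 28.2% of all genes, and the lower calls were above the 27.5% and 24.2%. Whether the list departs from all genes was not tested. The median log2 difference over the list was -0.28 and -0.30, against 0.01 and 0.04 over all genes. MTF1, the metal-responsive activator, was lower in 22Rv1 by log2 differences of -0.54 ± 0.11 and -0.61 ± 0.10 (SE; adjusted p = 0.00303 and 0.00273), although its TPM overlapped between the lines with NC-mimic (8.74 ± 0.60 and 8.28 ± 4.22, SD, n = 3). SLC30A4, an exporter of intracellular compartments, had the largest difference in the list, from 171 ± 20.2 TPM in LNCaP to 1.14 ± 0.32 TPM in 22Rv1 with NC-mimic and from 156 ± 10.8 to 1.47 ± 0.61 TPM with the mimic (SD, n = 3).

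SLC30A1, the plasma membrane zinc exporter and itself an MTF1 target, did not pass the threshold between the lines, with log2 differences of 0.31 ± 0.34 and -0.04 ± 0.25 (SE). SLC39A1, the main zinc importer described in prostate cells, was higher in 22Rv1 by 1.01 ± 0.11 in both arms, at 80.1 ± 3.31 TPM in LNCaP and 157 ± 19.9 TPM in 22Rv1 with NC-mimic (SD, n = 3). The importers SLC39A6 and SLC39A10 had log2 differences of 0.28 ± 0.13 and -0.20 ± 0.09 with NC-mimic and 0.34 ± 0.17 and 0.12 ± 0.10 with the mimic, none of them past the threshold. In response to the mimic, 0 of 20 zinc genes in LNCaP and 0 of 19 in 22Rv1 passed the adjusted threshold by edgeR. By the rule of the study 1 of them, the transporter SLC30A10, known mainly for manganese, was lower in LNCaP, at -0.56 ± 0.23 (SE; unadjusted p = 0.0309).

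Of 10 genes of copper handling, 1 was higher and 4 were lower in 22Rv1 with NC-mimic, and under the mimic the numbers were 0 and 4. Both directions together were below the shares of all genes (58.4% and 52.4%). The lower calls alone were above the 27.5% and 24.2% of all genes, and the higher calls were below the 30.9% and 28.2%. The 4 lower genes were the same in both arms, namely the importer SLC31A1, the chaperones ATOX1 and CCS and the exporter ATP7A, with ATOX1 falling from 282 ± 55.4 to 107 ± 35.0 TPM (SD, n = 3, NC-mimic). Of 8 genes listed as glucocorticoid-responsive, which count the receptor NR3C1 itself, 3 were higher and 1 was lower in both arms. Together they were also below the share of all genes. Here the higher calls alone, NR3C1 among them, were above that share by direction, and the lower calls were below it. The share among the responsive genes without the receptor was not computed. Whether either list departs from all genes was not tested. NR3C1, the glucocorticoid receptor, was at 0.16 ± 0.02 TPM in LNCaP and at 4.81 ± 0.58 TPM in 22Rv1 with NC-mimic, FKBP5 and PER1 were higher as well, and KLF9 was lower (21.5 ± 0.42 against 2.84 ± 1.36 TPM). With the mimic, 0 genes of either list passed the adjusted threshold in LNCaP or 22Rv1 (edgeR), and by the rule of the study 1 gene, SGK1, was lower in LNCaP (unadjusted p = 0.0204).

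The genes that flank the cluster did not share the pattern of MT1E. OGFOD1 and BBS2 lie on the MT3 side and NUP93 and HERPUD1 on the MT1X side. NUP93, a nuclear pore protein, was lower in 22Rv1 by log2 differences of -2.96 ± 0.15 and -3.01 ± 0.26 (SE), from 241 ± 3.22 to 47.5 ± 15.9 TPM with NC-mimic (SD, n = 3). BBS2, a subunit of the BBSome, was lower by -0.47 ± 0.10 and -0.54 ± 0.09 (adjusted p = 0.00385 and 0.00253, edgeR), and OGFOD1, a ribosomal protein hydroxylase, by -0.30 ± 0.13 and -0.42 ± 0.09, of which the latter passed the threshold (adjusted p = 0.00898). HERPUD1, an endoplasmic reticulum stress protein, had differences of -0.13 ± 0.15 and -0.28 ± 0.20 and did not pass. All 4 had TPM well above 0 in both lines, in contrast to MT1E and MT1H.

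Finally, members were set against MT2A by the Pearson correlation of their deviations from the line mean, on the log2(CPM + 0.5) scale over 12 libraries. These correlations are descriptions, and their 12 points share libraries, depth and the 2 replicate 3 libraries of 22Rv1. Over 12 libraries r was 0.93 for MT1E, 0.91 for MT1X, 0.81 for MT1G, 0.80 for MT3 and 0.02 for MT1F. With no LNCaP reads, MT1E varied only over the 6 libraries of 22Rv1, where its r was 0.96. In the 6 LNCaP libraries alone r was 0.04 for MT1X, -0.06 for MT1G, 0.06 for MT3 and 0.04 for MT1F, so the joint variation came from 22Rv1 (MT1X 0.95, MT1G 0.85 and MT3 0.84 over 6 libraries). The 5 other genes whose pattern was most like that of MT2A, of 18713 ranked, were the long non-coding RNA LINC00662 (0.98), C17orf107 (0.98), the transcriptional corepressor TLE1 (0.97), NIBAN1 (0.97) and the homeobox factor NKX2-1 (0.96). Within each 22Rv1 group all 5 were highest in replicate 3, as with TLE1 at 5.38, 3.75 and 14.3 CPM under NC-mimic and 6.67, 3.57 and 22.8 CPM under piR-4447944 mimic. In the 6 LNCaP libraries, which entered the ranking, the r of these 5 genes was 0.73 to 0.86. NKX2-1 reached no more than 0.14 CPM there.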

How the data were processed

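The 12 mRNA libraries (3 for each line and mimic) were aligned by the authors to hg38 with STAR 2.7.1a and quantified with RSEM 1.3.0. The authors deposited expected counts, the estimated reads per gene without normalization, and TPM, scaled for effective length and depth. For the tests, each expected count was rounded to a whole number, and edgeR 4.0.16 in R 4.3.3 was used (TMM, filterByExpr, glmQLFit and glmQLFTest) on each pair of groups, and over 12 libraries for the difference between lines, with Benjamini-Hochberg adjustment over all genes tested. Standard errors were derived from the estimate and its test statistic. The test was checked on simulated data with 1 common spread for all genes and libraries. That spread was narrower than those fitted in 22Rv1, between the lines with NC-mimic and over the 12 libraries, so the check does not cover these. Depth was 12161091 to 22179601 expected counts, and floors of 3 counts and 95% exact Poisson intervals cover counting error only. Expected counts without a gene name did not occur in the tables.

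The members and gene lists were chosen with earlier results of these data known. All members, MTF1, SLC30A1, SLC39A1, SLC39A6, SLC39A10, the flanking genes and the 5 genes most like MT2A were named by rule. Of the other zinc genes past the test between the lines, only SLC30A4, with the largest difference, is named. MT1XP1, SLC30A10 and the copper and glucocorticoid genes were named after their values were seen. Same-numbered 22Rv1 libraries deviated together (correlations across genes of 0.281, 0.229 and 0.422 for replicates 1, 2 and 3). The highest correlation with a mimic library of another number was 0.276, 0.151 and -0.300 for the same NC-mimic replicates. Replicate 1 thus matched another number almost as well as its own. The numbers were taken to pair the 22Rv1 libraries, from the values alone. Alternatives were DESeq2 size factors, no filter, a filter of 10 counts in each library, a replicate block, 12 libraries in one fit, DESeq2 1.42.0, limma 3.58.1 on log2(TPM + 1) or log2(TPM + 0.1), which understates changes of low genes, and fits without single libraries or, decided with the data in view, without the replicate 3 libraries of 22Rv1 and with the block. Promoters were from RefSeq (GRCh38.p14), and gene positions from the hg38 annotation, in which 9 of 9 member IDs matched.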

Additional observations from a re-analysis of the deposited data

How the results depend on the processing

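At an adjusted p under 0.05, the counts of members called in the mimic comparisons and in the difference between the lines were 0 in every alternative run. Beside the cases given with the results, the rule of the study was met by MT3 without 22Rv1 NC-mimic replicate 3 and by MT1X without 22Rv1 piR-4447944 mimic replicate 3, for the mimic in 22Rv1 (4.65 and -1.54) and for the difference of the mimic effect (5.31 and -1.59). Counting MT1E and MT1H, which have no LNCaP reads, 3 members passed between the lines with NC-mimic, against 1 with at least 10 counts in every library, a filter that leaves out MT1E and MT1H, 2 with limma on log2(TPM + 0.1) or unfiltered, and between 2 and 4 without single libraries. With piR-4447944 mimic, 2 passed, against 1 with that filter, which leaves out MT1E, 1 with the replicate block (MT1F lost, adjusted p = 0.101), 4 with all 12 libraries in one fit and between 1 and 3 without single libraries. For the changed counts of the block and of the 12-library fit the cause was not tested. The block, for which the numbers paired the samples in the mimic comparison of 22Rv1 alone, changed no other call at an adjusted p under 0.05. The call of MT2A with NC-mimic was lost in the 12-library fit (adjusted p = 0.114) and with limma (adjusted p from 0.0730 to 0.152), MT1F with NC-mimic was gained as lower in the 12-library fit and on log2(TPM + 1) (adjusted p = 0.0442 and 0.0491), and its call with piR-4447944 mimic was also lost without a filter (adjusted p = 0.0809).

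The signs that turned belonged to small or widely spread log2 differences, and among them only MT1X between the lines with piR-4447944 mimic passed the threshold, without the replicate 3 libraries or without that of 22Rv1 alone. Without the replicate 3 libraries, the mimic effect was 0.013 for MT1G in LNCaP, and -0.25 for MT1F, -0.86 for MT1X and -0.076 for MT2A in 22Rv1 (-0.21, -0.86 and -0.075 with the replicate block added), the line difference was -0.038 for MT1G with NC-mimic and -1.72 for MT1X with piR-4447944 mimic, and the difference of the mimic effect was -0.98 for MT1X. With the replicate block, MT1X was -0.26 for the mimic in 22Rv1, -0.55 between the lines with piR-4447944 mimic and -0.28 in the difference of the mimic effect, where MT1F was 0.043. On log2(TPM + 1), with or without a filter, MT1X was -0.038 in LNCaP, -0.31 in 22Rv1, -0.54 between the lines with piR-4447944 mimic and -0.27 in the difference, MT1F in 22Rv1 was -0.0022 and MT2A in the difference 0.0039. On log2(TPM + 0.1) the values were -0.038, -0.32, -0.55 and -0.28 for MT1X and 0.0039 for MT2A. MT1X between the lines with NC-mimic was 0.00019 with at least 10 counts in every library and 0.0018 in the 12-library fit.

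Leaving out single libraries moved the mimic effect in LNCaP from -0.18 to 0.030 for MT1G and from -0.046 to 0.19 for MT1X. In 22Rv1 it ranged from -0.66 to 0.45 for MT1E, -0.12 to 0.62 for MT1F, -0.29 to 0.85 for MT1G, -1.44 to 0.17 for MT1H, -1.54 to 1.02 for MT1X, -0.33 to 0.41 for MT2A and -0.34 to 4.65 for MT3. Between the lines with NC-mimic it ranged from -0.023 to 1.06 for MT1G, -0.68 to 0.25 for MT1X and -1.44 to 1.59 for MT3, and with piR-4447944 mimic from -1.59 to 0.79 for MT1X. The difference of the mimic effect ranged from -0.30 to 0.45 for MT1F and -0.22 to 0.93 for MT1G. It ranged from -1.59 to 0.98 for MT1X and -0.52 to 0.22 for MT2A. For MT1E and MT1H the same fits returned -0.67 to 0.46 and -1.46 to 0.17. With no LNCaP reads, these values rest on the 22Rv1 libraries alone and give no difference between the lines. DESeq2 was run without shrinkage for the difference of the mimic effect, a choice made after seeing the data. Depth limits MT1M, MT1H and MT1F most, with 11, 86 and 131 counts over the 6 libraries of 22Rv1.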
